A study of Homo sapiens with 3 samples.

Results

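The autophagy genes described here are 42 of the 19866 RefSeq protein-coding genes on the chromosomes, taken by symbol and not by any measured value. The choice was made with earlier results of these data known. They are the ATG genes, the ULK genes, the WIPI genes and the MAP1LC3 and GABARAP genes, with BECN1, RB1CC1, SQSTM1, NBR1, OPTN, TFEB, UVRAG, PIK3C3, PIK3R4 and AMBRA1. Chromatin of HCT116, a human colorectal cancer line that in all samples expressed Flag-tagged VCP, was cut with micrococcal nuclease and precipitated with an antibody to VCP (1 library) or to the Flag tag (1 library), beside 1 input library whose signal was not used here. How the tagged VCP was introduced is not given in the sources used here, and no library of cells without the tag was analysed here. No group has a replicate, so no difference between the antibodies or between genes was tested, and all intervals below cover counting error only.

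Autophagy encloses cytoplasm in a double membrane, the autophagosome, and delivers it to the lysosome. The ULK kinase complex starts the process, a lipid kinase complex around BECN1 marks the membrane, ATG9, ATG2 and the WIPI proteins supply and shape it, and conjugation enzymes attach ATG8 proteins (the MAP1LC3 and GABARAP families) to it, which cargo receptors bind. VCP is an ATPase that pulls ubiquitin-tagged proteins out of complexes and membranes, and it is known to act in the maturation of autophagosomes and the clearance of damaged lysosomes. The data below concern its position, and that of the tag, on the chromatin of the genes.

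The VCP antibody gave 4 of the 42 autophagy genes a peak (9.52%, exact binomial 95% interval 2.66 to 22.6), against 4.63% of all protein-coding genes. The Flag antibody gave 12 a peak (28.6%, 15.7 to 44.6), against 17.5% of all protein-coding genes. Of the 4 genes in the VCP list, GABARAP and ATG13 had the summit (the peak's highest point) within 1 kb of an outer end of the gene, and ATG101 and SQSTM1 had it in the body, farther than 1 kb from both ends. In the Flag list 8 genes had a summit at an end (RB1CC1, PIK3R4, ATG10, ATG16L1, ATG4C, GABARAP, MAP1LC3B and NBR1) and 4 in the body (ATG101, AMBRA1, UVRAG and SQSTM1). ATG101, GABARAP and SQSTM1 were in both lists, ATG13 was in the VCP list alone, and 9 genes were in the Flag list alone. Thus 13 of the 42 had a peak in either list (31.0%, 17.6 to 47.1), against 20.1% of all protein-coding genes, and the other 29 had no listed peak.

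At gene ends the VCP list held 2 of the 42 autophagy genes (4.76%, 0.582 to 16.2), against 2.34% of all protein-coding genes. The Flag list held 8 of 42 (19.0%, 8.60 to 34.1), against 11.7% of all protein-coding genes. For bodies the shares were 4.76% for VCP (0.582 to 16.2), against 2.35% of all protein-coding genes, and 9.52% for Flag (2.66 to 22.6), against 6.75%. Each of these 4 background shares lies inside the interval of the autophagy genes. The VCP body summits, at ATG101 and SQSTM1, lay within 1 kb of an annotated start inside the outer ends, as did the Flag body summit of ATG101. A summit in both lists, at an end or in the body, was listed for 3 of the 42 (7.14%, 1.5 to 19.5), against 2.09% of all protein-coding genes, also inside the interval. An end summit in both lists was listed for GABARAP alone (2.38%, 0.0603 to 12.6), against 0.987% of all protein-coding genes. Overlapping VCP and Flag peaks were listed at 2 genes, ATG101 and GABARAP (4.76%, 0.582 to 16.2), against 0.982%. The lists share cells, and whether the only input library served as background for both is not given in the sources used here.

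**Figure D1:**
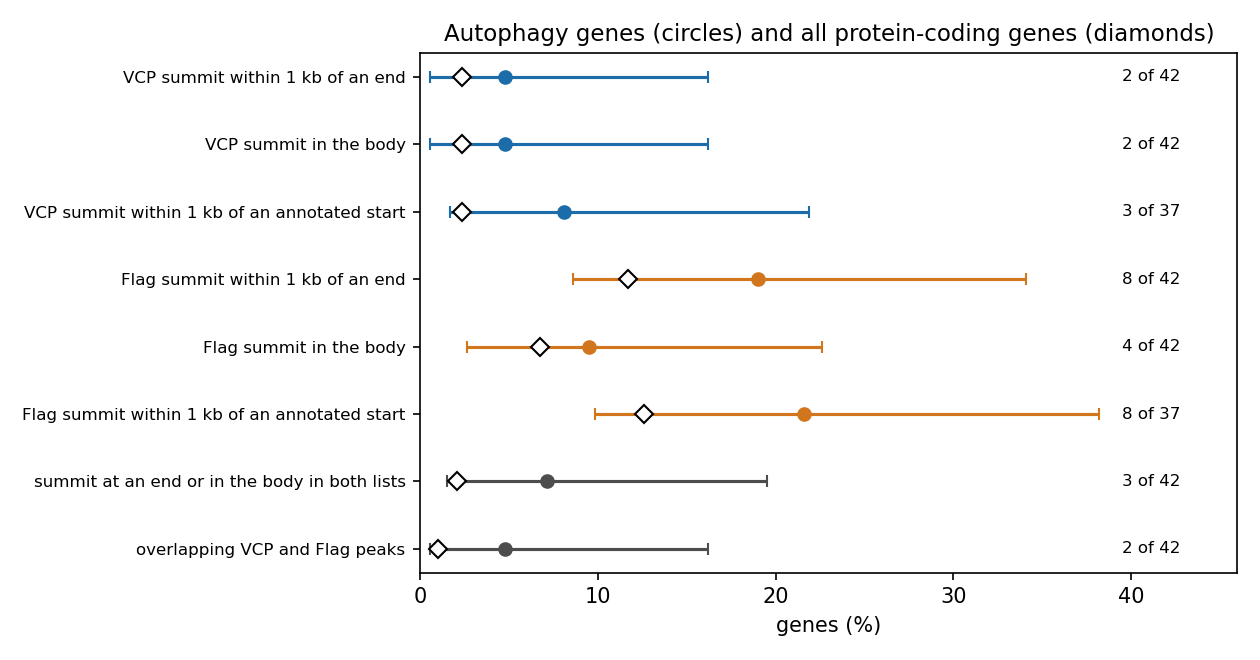
Percent of genes (horizontal axis) with a summit of each kind, for the autophagy genes (circles, with exact binomial 95% intervals and the count at the right) and for all protein-coding genes (open diamonds). Every circle lies to the right of its diamond, and every diamond lies within the interval, from 2 of 42 against 2.34% for VCP summits at gene ends to 8 of 37 against 12.6% for Flag summits at annotated starts. ATG101, GABARAP and SQSTM1 recur across the rows, so the shared direction is not a set of separate results.

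Depth limits what a missing peak can say. Both lists hold weak peaks, with a median of 10 reads at a VCP summit and 11 at a Flag summit, over backgrounds that started at 1.74 reads for VCP and 1.85 reads for Flag. On chromosomes there were 1803 VCP peaks, of which 6.49% had a q of at most 0.05, and 5692 Flag peaks, of which 33.8% did. Fold enrichment and -log10 q below are the authors' own values for each peak and rank it within its list only.

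Of the 5 genes of the ULK initiation complex, 2 were in the VCP list (ATG101 and ATG13) and 2 in the Flag list (ATG101 and RB1CC1). Over all protein-coding genes, 4.63% had a VCP peak and 17.5% a Flag peak at an end or in the body. Counts by step, here and below, stand beside those shares. Each step has few genes, and no step was tested. ATG101, which encodes the subunit that stabilises ATG13 in the complex, had the highest fold enrichment of the whole VCP list. Its VCP peak on chromosome 12 (52069722 to 52070014) had 19 reads at the summit (95% interval 11.4 to 29.7) over a background of 1.74, a fold enrichment of 7.30 and -log10 q of 7.87, the 4th highest of 1803. The Flag peak at the same place (52069707 to 52069943) had 11 reads (5.49 to 19.7) over 1.85, a fold enrichment of 4.21 and -log10 q of 1.87, rank 1227 of 5692. The peaks overlapped by 222 bp and the summits lay 61 bp apart.

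By the outer ends of the gene this peak counts as body, with the VCP summit 4532 bp and the Flag summit 4471 bp from the nearest end. RefSeq places the annotated start of ATG101 inside those ends, at 52069978 on the plus strand. The VCP summit lay 146 bp upstream of that start and the Flag summit 207 bp upstream, so both peaks overlapped the promoter. The window from 250 bases before to 50 after the start is printed because it carries the summits of both antibodies (RefSeq, GRCh38.p14, plus strand, chr12:52069728-52070027). Capitals mark the 21 bases centred on each summit, the Flag one first.
ATG101: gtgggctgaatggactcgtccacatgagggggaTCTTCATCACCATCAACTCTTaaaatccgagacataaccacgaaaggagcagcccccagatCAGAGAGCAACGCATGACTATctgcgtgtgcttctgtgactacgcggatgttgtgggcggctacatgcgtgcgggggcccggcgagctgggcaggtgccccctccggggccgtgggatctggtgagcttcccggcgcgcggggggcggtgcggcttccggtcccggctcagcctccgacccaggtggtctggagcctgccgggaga

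ATG13, the adaptor that links the kinase to RB1CC1 in the complex, had a VCP peak at its far end. On chromosome 11 (46675207 to 46675544) the summit lay 811 bp beyond the transcript end, with 9 reads (4.12 to 17.1) over a background of 1.74, a fold enrichment of 3.65 and -log10 q of 0.389. RB1CC1, the scaffold of the complex, had a Flag summit 197 bp outside an outer end on chromosome 8, with 12 reads (6.20 to 21.0) over 3.63 and -log10 q of 0.495. Neither peak reached a q of 0.05. The kinase genes ULK1 and ULK2 had no listed peak, and neither did ULK3 and ULK4, members of the same family.

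Of the 6 genes of the lipid kinase complex, 0 had a VCP peak and 3 had a Flag peak, against 4.63% and 17.5% of all protein-coding genes. PIK3R4, which encodes the regulatory kinase-like subunit VPS15, had a Flag summit 813 bp upstream of its start on chromosome 3 (10 reads, 4.80 to 18.4, fold enrichment 3.37, -log10 q 0.813). AMBRA1, a BECN1 regulator, had a Flag summit 32902 bp downstream of its nearest annotated start (10 reads, 4.80 to 18.4, fold enrichment 3.18, -log10 q 0.708). UVRAG, a BECN1 partner, had a Flag summit 131530 bp inside the gene (8 reads, 3.45 to 15.8, fold enrichment 3.16, -log10 q 0.458). These 3 Flag peaks lay in the lower part of their list, with 51.7% of Flag peaks ranked above PIK3R4, 68.5% above AMBRA1 and 74.5% above UVRAG. BECN1, the catalytic subunit gene PIK3C3 and ATG14 had no listed peak.

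Of the 4 genes with a Flag body summit, UVRAG (329 kb) and AMBRA1 (198 kb) were long, whereas SQSTM1 (31.7 kb) and ATG101 (12.2 kb), which also held the VCP body summits, were shorter than the median autophagy gene. The median length of the genes with a body summit was 21.9 kb for VCP and 115 kb for Flag; the part of gene length in these counts was not tested. Autophagy genes had a median length of 36.2 kb, against 24.5 kb for all protein-coding genes. Per megabase of gene they held 0.609 VCP body summits, against 0.446 over all protein-coding genes, and 1.22 Flag body summits, against 1.34. The VCP value rests on the summits of ATG101 and SQSTM1 alone, both within 1 kb of an annotated start. The Flag density of the autophagy genes was thus below that of all genes although their share of genes with a body summit was above it.

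The 6 genes of membrane supply, ATG9A, ATG9B, ATG2A, ATG2B, WIPI1 and WIPI2, had no listed peak in either list. Of all protein-coding genes, 20.1% had a peak in either list. They encode a lipid scramblase family, lipid transfer proteins and lipid-binding propellers.

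Conjugation of ATG8 proteins runs through 7 genes here. Of these, 0 had a VCP peak and 2 had a Flag peak, against 4.63% and 17.5% of all protein-coding genes. ATG16L1, the subunit that brings the ATG12-ATG5 conjugate to the membrane, had a Flag peak across its start on chromosome 2 (233251458 to 233251864), with the summit 158 bp upstream, 10 reads (4.80 to 18.4), a fold enrichment of 2.96 and -log10 q of 0.458. ATG10, the enzyme that passes ATG12 to ATG5, had a Flag summit 173 bp downstream of its start on chromosome 5 (9 reads, 4.12 to 17.1, fold enrichment 3.03, -log10 q 0.458). ATG3, ATG5, ATG7, ATG12 and ATG16L2 had no listed peak. Among the 4 ATG4 genes, whose proteases trim ATG8 proteins, ATG4C had a Flag peak (chromosome 1, 62783865 to 62784187) with its summit 32 bp upstream of the start, 13 reads (6.92 to 22.2), a fold enrichment of 3.76 and -log10 q of 1.73. Of these 3 peaks, that of ATG4C had a q under 0.05 and those of ATG16L1 and ATG10 did not.

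The promoter windows of ATG4C and ATG16L1 hold the Flag summits nearest to the starts of these steps and are printed for that reason (RefSeq, GRCh38.p14, plus strand, chr1:62783882-62784181 and chr2:233251423-233251722). Capitals mark the 21 bases centred on the Flag summit.
ATG4C: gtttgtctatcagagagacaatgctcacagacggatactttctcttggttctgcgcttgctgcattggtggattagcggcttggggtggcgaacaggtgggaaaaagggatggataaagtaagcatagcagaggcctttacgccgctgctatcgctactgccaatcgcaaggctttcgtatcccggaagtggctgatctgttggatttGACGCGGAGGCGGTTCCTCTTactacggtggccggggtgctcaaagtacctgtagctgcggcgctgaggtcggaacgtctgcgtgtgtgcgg
ATG16L1: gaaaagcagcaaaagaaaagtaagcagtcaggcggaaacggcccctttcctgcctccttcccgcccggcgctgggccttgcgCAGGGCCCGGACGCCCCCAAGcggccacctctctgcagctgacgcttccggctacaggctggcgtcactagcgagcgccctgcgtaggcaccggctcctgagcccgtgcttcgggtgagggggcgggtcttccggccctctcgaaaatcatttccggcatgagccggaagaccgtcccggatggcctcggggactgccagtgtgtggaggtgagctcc

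The ATG8 family showed GABARAP in both lists and MAP1LC3B in the Flag list. GABARAP encodes an ATG8 protein that acts mainly in later steps of autophagosome formation. Its VCP peak on chromosome 17 (7242832 to 7243021) had 16 reads (9.15 to 26.0) over a background of 3.41, a fold enrichment of 3.85 and -log10 q of 1.42. Its Flag peak (7242808 to 7243204) had 23 reads (14.6 to 34.5) over 3.69, a fold enrichment of 5.11 and -log10 q of 6.28, the highest among the Flag peaks of autophagy genes. GABARAP ranked 103 of 1803 among VCP peaks and 103 of 5692 among Flag peaks.

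The GABARAP peaks overlapped by 190 bp, the whole width of the VCP peak, with summits 33 bp apart. The VCP summit lay 445 bp and the Flag summit 412 bp upstream of the annotated GABARAP start at 7242449. CTDNEP1, a nuclear envelope phosphatase gene on the same strand, ends nearby, and the VCP summit lay 697 bp and the Flag summit 730 bp from its transcript end. Both peaks therefore count for both genes, while the only start within 1 kb among these 2 genes is that of GABARAP.

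MAP1LC3B encodes LC3B, the ATG8 protein most used as an autophagosome marker. Its Flag peak on chromosome 16 (87392095 to 87392290) had 23 reads (14.6 to 34.5) but a background of 6.80, so its fold enrichment was 3.08, with -log10 q of 2.20. This background was the highest among the peaks of autophagy genes. The summit lay 87 bp upstream of the annotated MAP1LC3B start. It was also 128 bp from the outer start of FBXO31, a ubiquitin ligase gene that runs the other way, so the peak counts for both. The window is printed because it holds the whole Flag peak (RefSeq, GRCh38.p14, plus strand, chr16:87392086-87392385). Capitals mark the 21 bases centred on the Flag summit.
MAP1LC3B: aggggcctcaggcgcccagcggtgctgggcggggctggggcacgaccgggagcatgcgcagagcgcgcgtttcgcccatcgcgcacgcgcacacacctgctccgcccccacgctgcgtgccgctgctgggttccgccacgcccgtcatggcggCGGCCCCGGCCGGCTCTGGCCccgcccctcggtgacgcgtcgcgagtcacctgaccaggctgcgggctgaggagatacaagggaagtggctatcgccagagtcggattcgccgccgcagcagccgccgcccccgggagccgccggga

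GABARAPL1, GABARAPL2, MAP1LC3A, MAP1LC3B2 and MAP1LC3C had no listed peak. Neither had MAP1LC3BP1, which RefSeq lists as protein-coding although its symbol is that of a MAP1LC3B pseudogene. Near-identical copies such as MAP1LC3B and MAP1LC3B2 can share reads, and how the authors treated such reads is not given in the sources used here.

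Of the 3 cargo receptor genes, SQSTM1 and NBR1 had peaks and OPTN had no listed peak, against 20.1% of all protein-coding genes with a peak in either list. SQSTM1 encodes p62, which carries ubiquitin-tagged cargo to ATG8 proteins. Its VCP peak on chromosome 5 (179807913 to 179808097) had 10 reads (4.80 to 18.4) over 2.79, a fold enrichment of 2.90 and -log10 q of 0.206. Its Flag peak (179819130 to 179819609) had 19 reads (11.4 to 29.7) over 3.28, a fold enrichment of 4.67 and -log10 q of 4.37, rank 292 of 5692. The summits lay 11.6 kb apart, so SQSTM1 was in both lists with separate peaks. RefSeq gives SQSTM1 3 annotated starts in the table used. The VCP summit lay 948 bp downstream of the start at 179807009, and the Flag summit 1359 bp upstream of the start at 179820905.

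NBR1, a receptor related to p62, had a Flag peak on chromosome 17 (43169915 to 43170202) with its summit 342 bp upstream of the start, 10 reads (4.80 to 18.4) over 1.85, a fold enrichment of 3.86 and -log10 q of 1.29. The same summit lay 260 bp from the outer start of BRCA1, which runs the other way, and 113 bp from an end of the pseudogene BRCA1P1. The stretch between NBR1 and BRCA1P1 is known to be a copy of the one between BRCA1 and its neighbour, so the place of these reads is uncertain. A VCP peak next to it missed the 1 kb window by little, with its summit 1013 bp from NBR1 (9 reads, 4.12 to 17.1, fold enrichment 3.65, -log10 q 0.389) and 671 bp from the Flag summit. The summits farthest out inside the window were those of PIK3R4 at 813 bp and ATG13 at 811 bp. TFEB, the transcription factor of autophagy and lysosome genes, had no listed peak.

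**Figure D2:**
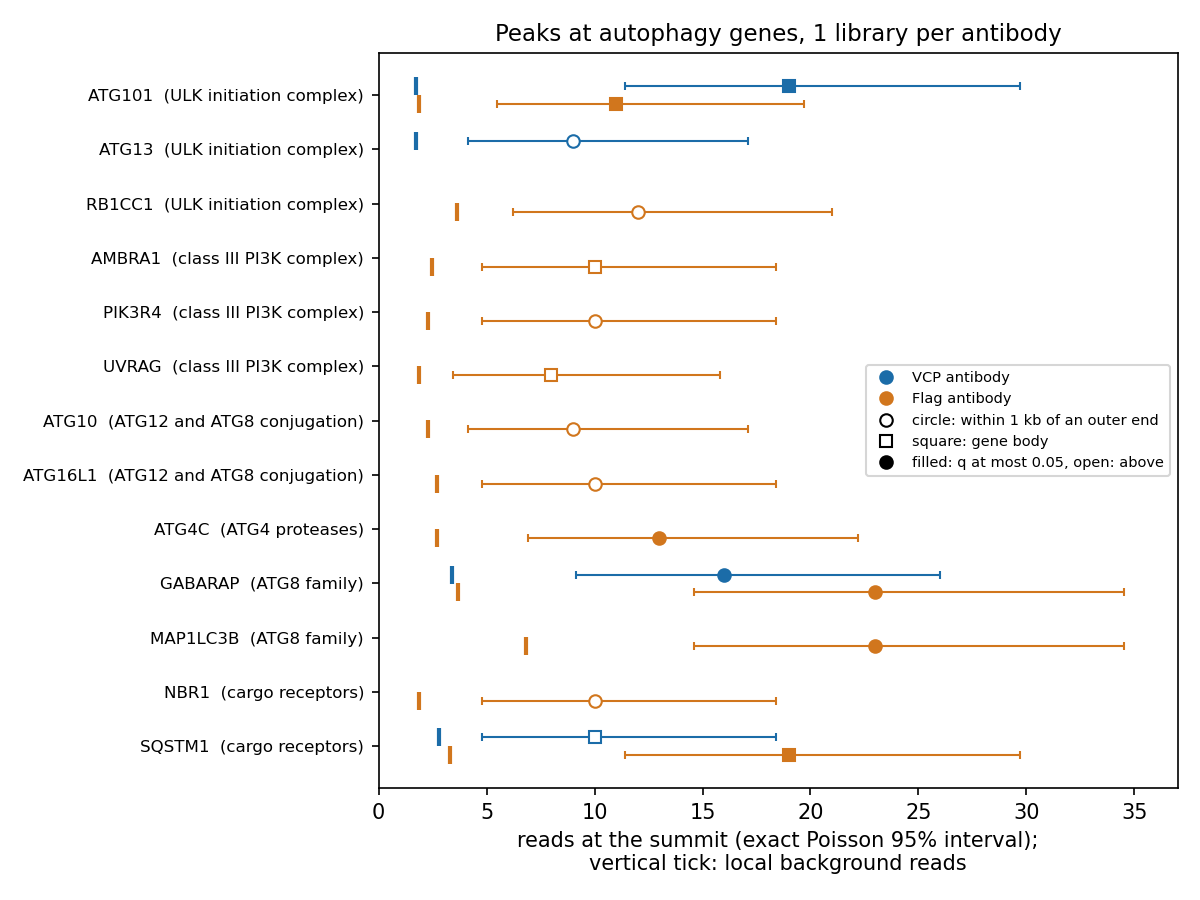
Reads at the summit with exact Poisson 95% intervals (points and bars, horizontal axis) and local background reads (vertical ticks) for the 13 autophagy genes with a listed peak, ordered by step, from 1 VCP and 1 Flag library. ATG101 had 19 VCP reads and 11 Flag reads, and GABARAP had 16 VCP reads and 23 Flag reads. The counts come from separate libraries and were not compared between antibodies. Each summit is the highest point of a called peak, which the intervals do not allow for. Circles are summits within 1 kb of an outer end, squares are body summits, and filled symbols have a q of at most 0.05.

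A q of at most 0.05 was kept by 2 autophagy genes in the VCP list, ATG101 and GABARAP (4.76% of 42, exact binomial 95% interval 0.582 to 16.2), against 0.443% of all protein-coding genes. In the Flag list it was kept by 5, which were GABARAP, SQSTM1, MAP1LC3B, ATG101 and ATG4C (11.9%, 3.98 to 25.6), against 7.65%. The VCP background share lies below its interval, on a count of 2 genes and without a test. In every other comparison of the autophagy genes given here, the share of all genes lay inside the interval. None of these intervals allows for a choice of genes made with earlier results known. The median fold enrichment of the 12 Flag peaks of autophagy genes was 3.27, against 3.49 over all Flag peaks on chromosomes. For the 4 VCP peaks it was 3.75, against 3.28 over the VCP list. At gene ends alone it was 3.75 for the 2 VCP peaks, against 3.61 over protein-coding genes. For the 8 Flag peaks at ends it was 3.22, against 3.67.

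**Figure D3:**
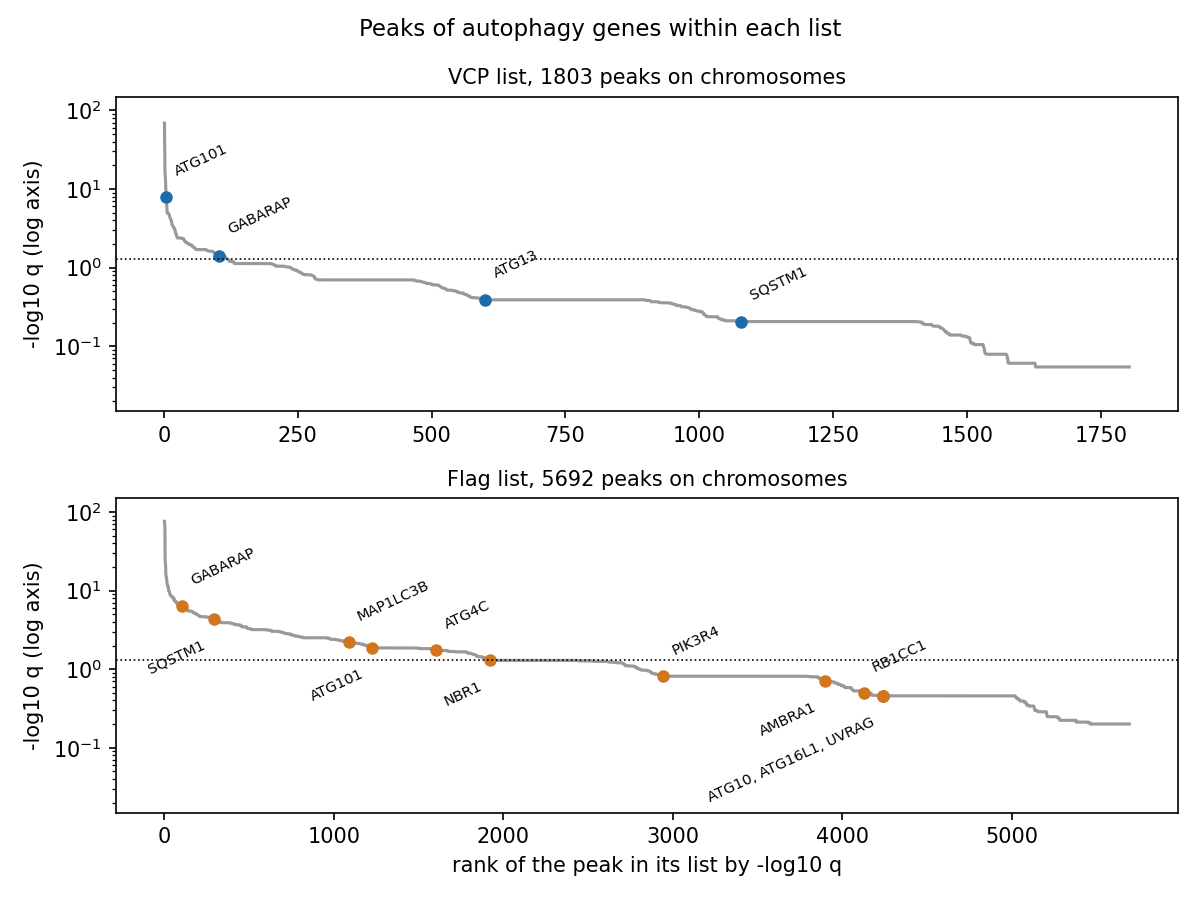
Rank of each peak in its list by -log10 q (horizontal axis) against -log10 q (vertical axis, log scale), with all peaks of the list as a grey line, the autophagy genes as points, and q = 0.05 as a dotted line. ATG101 stands 4th of 1803 in the VCP list, GABARAP leads the autophagy genes in the Flag list at 103 of 5692, and most other points lie on the flat lower part.

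Annotated starts were known for 37 of the 42 genes and most of the peaks lay within 1 kb of them. Within 1 kb of a start, the VCP list had summits at 3 genes (ATG101, GABARAP and SQSTM1; 8.11% of 37, exact binomial 95% interval 1.7 to 21.9), against 2.37% of the 15843 protein-coding genes with a start in the table. The Flag list had them at 8 genes (ATG101, PIK3R4, ATG10, ATG16L1, ATG4C, GABARAP, MAP1LC3B and NBR1; 21.6%, 9.83 to 38.2), against 12.6%. In both lists a start summit was found at ATG101 and GABARAP, 5.41% of 37 (0.661 to 18.2), against 1.05%. Of the 7 Flag summits at outer ends of autophagy genes with a known strand, 7 were at the start and 0 at the transcript end, and over all protein-coding genes 93.5% of such summits were nearer the outer start. The 2 VCP summits at outer ends split into 1 at a start (GABARAP) and 1 at a transcript end (ATG13), and over all protein-coding genes 89.5% were nearer the outer start.

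**Figure D4:**
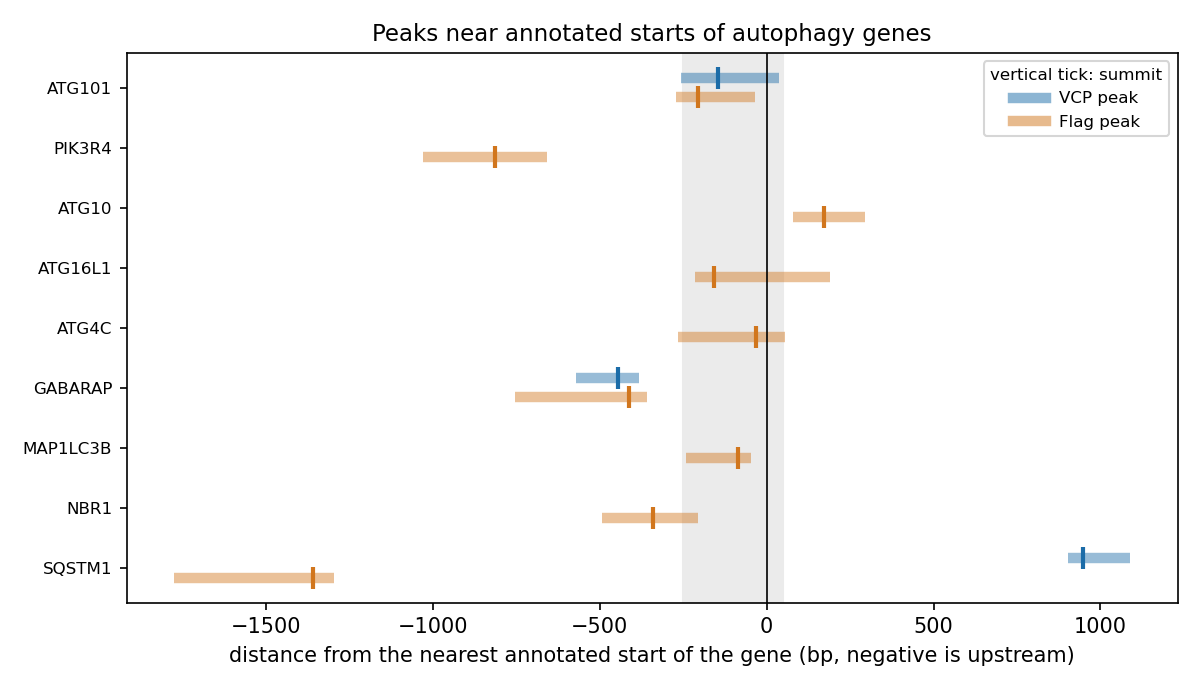
Extent of the peaks (bars) and their summits (ticks) in base pairs from the nearest annotated start of each gene, negative upstream, with the 300-base promoter window shaded. At ATG101 and GABARAP the VCP and Flag bars cover the same stretch upstream of the start, while at SQSTM1 the bars are drawn from different starts of the gene and lie 11.6 kb apart by their summits.

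No motif searched was present in all 4 printed windows. Of 8 short motifs looked for on both strands in the 300-base windows, the ETS core CCGGAAG was found at 10 of the 37 autophagy genes (27%), against 16.5% of all protein-coding genes with a window. It was present in the printed windows of ATG101 (first base at -3 from the start), ATG16L1 (at -124, -40 and -5) and ATG4C (at -68) and not in that of MAP1LC3B. The GC box GGGCGG was found at 64.9% of the autophagy genes, against 64.3% of all, and lies in the printed windows of ATG101, ATG16L1 and MAP1LC3B. CACGTG, the E-box letters that form the core of the TFEB element, was found at 3 autophagy genes (ATG14, ATG3 and ULK3; 8.11%), against 10.9% of all, and the full palindromic CLEAR element, which contains those letters, at 0 of 37, against 0.638% of all. CCAAT was found at 35.1%, against 42.1% of all, the YY1 letters AAGATGGC at 5.41%, against 4.66%, the cyclic AMP element TGACGTCA at 2.7%, against 3.0%, and the NRF1 palindrome at 0 of 37, against 1.99%. Of the 8 motifs the ETS core had the widest gap to all genes. No interval was taken for these shares, and no motif was tested. A match describes letters and not a bound site.

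The windows had close medians of base composition. Autophagy genes with a Flag summit at a start had a median of 62.0% G and C (8 genes, 53.0 to 76.7), the other autophagy genes 63.3% (29 genes, 44.7 to 79.7) and all protein-coding genes 62.3%. Among the printed windows MAP1LC3B had 75.7% and ATG4C 55.0%.

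A further 143 genes of upstream control, membrane supply, cargo receptors, fusion and the lysosome were counted in the same way. At gene ends the VCP list held 1 of them (0.699%, exact binomial 95% interval 0.0177 to 3.83), against 2.34% of all protein-coding genes, and the Flag list 38 (26.6%, 19.5 to 34.6), against 11.7%. The Flag background share lies below that interval, but these genes were chosen by hand with earlier results of these data known. The interval does not allow for that choice. In gene bodies the VCP list held 2 of the 143 (1.40%, 0.170 to 4.96), against 2.35% of all protein-coding genes, and the Flag list 9 (6.29%, 2.92 to 11.6), against 6.75%, so both body shares were below those of all genes and within counting error of them. No test was made, and expression in these cells was not measured in the files.

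BORCS7, a subunit of the complex that moves lysosomes along microtubules, was the gene with end summits in both lists. Its VCP peak on chromosome 10 had 11 reads (fold enrichment 4.14, -log10 q 1.01) and its Flag peak 18 reads (5.12, -log10 q 4.81), with an overlap of 159 bp and summits 382 bp apart. VMP1, a lipid scramblase of the endoplasmic reticulum needed for autophagosome formation, had 1 VCP peak in its body (fold enrichment 3.34, -log10 q 0.389) and 8 Flag peaks, 7 in the body and 1 at the transcript end, with fold enrichments of 2.75 to 3.60 over backgrounds of 2.35 to 4.08 reads. The VCP peak of VMP1 overlapped a Flag peak by 213 bp, with summits 130 bp apart. RPTOR, the scaffold of the growth kinase complex mTORC1, had 1 VCP peak (fold enrichment 3.56) and 5 Flag peaks, and the nearest summits of the 2 lists lay 115 kb apart. BORCS7 lies on chromosome 10 and VMP1 and RPTOR on chromosome 17, parts of which HCT116 is known to carry in extra copies. Copy number was not measured here, and its part in these peaks was not tested.

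By group, Flag summits at ends were found at 10 of 32 genes of upstream control, 4 of 20 of membrane supply, 4 of 23 further receptors, 6 of 25 of fusion and 14 of 43 of the lysosome, against 11.7% of all protein-coding genes. At these group sizes the counts of 4 exceed that share by under 2 genes each, and no group was tested against it. The highest -log10 q among upstream control genes belonged to MLST8, another mTORC1 subunit (fold enrichment 4.96, -log10 q 4.30), and to the body peak of MITF, a relative of TFEB (4.41, -log10 q 2.76). Among membrane supply genes other than VMP1 they belonged to TP53INP1 (fold enrichment 3.11, -log10 q 0.813) and RAB11A (3.06, -log10 q 0.458). Among receptors they belonged to ATL3, a receptor for the endoplasmic reticulum (4.54, -log10 q 4.39), and SEC62 (3.86, -log10 q 1.29). In the fusion group BLOC1S1, another subunit of the BORCS7 complex, had a Flag peak with a fold enrichment of 5.20 and -log10 q of 3.84. In the lysosome group the highest -log10 q values belonged to LAMP1, a major lysosomal membrane protein (5.31, -log10 q 7.61), and CLN3 (6.07, -log10 q 6.61). LAMP1 and CLN3 thus had a higher -log10 q in the Flag list than any of the 42 autophagy genes.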

How the data were processed

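Peak lists of 1 VCP and 1 Flag immunoprecipitation library were used. Per the submitters' processing notes, the tools were bcl2fastq 2.17, Trimmomatic 0.33, Bowtie 1.1.2 and MACS2 2.1.0 on hg38, and no source used here gives their settings. The deposited lists hold, per peak, a fold enrichment of the summit over its local background (a ratio), -log10 p and -log10 q. The deposited score is 10 times -log10 p, rounded down, and was not used. The lists hold 1816 and 5719 peaks, of which 1803 and 5692 lay on chromosomes.

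Reads at a summit were recovered as the whole number whose Poisson tail, with a pseudocount of 1 in the fold enrichment, matched the authors' -log10 p within 0.001, which held for all 1816 VCP and 5719 Flag peaks. Genes came from RefSeq GRCh38.p14, the same build (58961 rows on chromosomes). Strand and starts came from its promoter table, which holds 37 of the 42 autophagy genes and 15843 of 19866 protein-coding genes (79.7%). Genes with several starts were measured to the nearest. Peaks shared by neighbours count for each gene. Python 3.11.15, pandas 2.3.3 and scipy 1.17.1 were used, and the code was tested on simulated data. Intervals are exact (Clopper-Pearson, or Poisson for reads).

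Members and the 5 further gene lists were chosen with earlier results of these data known. Every autophagy gene with a summit at an end or in the body is named. Of the further genes, those in both lists and otherwise the 2 highest by -log10 q per list and antibody are named, except 1 that is not reported here. Alternatives were a q limit, other windows, other overlap rules, nearest gene, any base of the peak, and annotated starts.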

Additional observations from a re-analysis of the deposited data

How the results depend on the processing

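Of 34 alternatives to the counts of genes, 24 stayed within 1.5 times the value reported and 10 did not. This compares counts and not which genes make them up. With annotated starts only, 3 autophagy genes had a VCP summit, with ATG101 and SQSTM1 in and ATG13 out. The Flag count stayed at 8, with ATG101 in place of RB1CC1. Starts were known for 37 of the 42 autophagy genes and 108 of the 143 further genes. With peaks of q at most 0.05, autophagy genes with a summit at an end numbered 1 for VCP and 3 for Flag. Those with a summit in the body numbered 1 for VCP and 2 for Flag. The further pathway genes with a summit at an end numbered 0 for VCP and 16 for Flag. At an end or in the body, 0 of the 143 further genes kept a VCP peak (0 to 2.55%), against 0.443% of all protein-coding genes. For Flag 20 did (14.0%, 8.76 to 20.8), against 7.65%, and the interval does not allow for the choice of genes. No share of all genes is given for the other windows. With a 500 bp window 1 autophagy gene had a VCP summit at an end, and with a 3 kb window 4 did (ATG13, GABARAP, NBR1 and SQSTM1). With bodies counted from 3 kb inside the ends, 1 had a VCP body summit. At an end in both lists there was 1 autophagy gene, GABARAP. The 2 genes with overlapping VCP and Flag peaks, ATG101 and GABARAP, numbered 2 under all 3 other rules tried for overlap. The q limit keeps fewer peaks, and the other alternatives count the same listed peaks by a different rule. No paired analysis was possible because each antibody has 1 library. Peaks below the caller's limit are not in the lists, so a gene without a peak was not shown to lack VCP or the tag.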
